A study of Mus musculus with 45 samples.

Results

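The endoplasmic reticulum (ER) stress and secretory pathway genes described here are 38 named genes out of the 50600 gene identifiers in the count tables. They were taken from a fixed list of names, not selected by a threshold on expression, but the list was chosen with earlier results of these data known. All 38 were found and passed the filter on low counts in each comparison. They fall into 6 roles: 11 ER chaperones and co-chaperones, 4 disulfide isomerases, 6 stress sensors and transcription factors, 8 genes of ER-associated degradation, 6 genes of translocation into the ER, and 3 targets of the transcription factors ATF4 and CHOP.

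The study sequenced poly A enriched RNA from mouse distal colon. In the first cohort, 8 wild-type libraries came from mice with the treatment given as none, 10 libraries from Il10 knockout mice given vehicle, 9 from knockouts given compound 13 at 30 mg/kg and 7 from knockouts given it at 10 mg/kg. Compound 13 belongs to a study of a selective antagonist of the proton-sensing receptor GPR4. A separate cohort at day 77 held 5 libraries from knockouts given vehicle and 5 from knockouts given anti-p40, an antibody against the subunit shared by interleukins 12 and 23, and no wild type. Every treated group and its vehicle group therefore carry the Il10 deletion, and because wild-type mice received no vehicle, deletion and vehicle cannot be told apart. One further knockout library has labels that disagree on the dose and entered no comparison. The labels give no age, sex or strain, and do not say whether each library is a separate animal, so p-values measure the spread between libraries, part of which may be technical.

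Secreted and membrane proteins enter the ER through the Sec61 channel, lose their signal peptide, receive sugar chains and disulfide bonds, and fold with the help of chaperones. Misfolded proteins are returned to the cytosol and destroyed, a route called ER-associated degradation. When folding falls behind, the sensors IRE1, ATF6 and PERK start the unfolded protein response, in which XBP1 and ATF6 raise chaperone genes and ATF4 raises amino acid genes and the death-linked factor CHOP (Ddit3). In the colon this machinery is heavily used by mucus-secreting goblet cells and antibody-secreting plasma cells.

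The libraries held 22682491 to 36279774 estimated counts. The deleted gene was at 0 in all 37 knockout libraries, but wild-type colon held only 10 Il10 counts in 4 of 8 libraries, so it checks the labels weakly. Marker sums are given in CPM, counts scaled to a common library total, the unit of all levels below unless another is named. The colon epithelial markers (Epcam, Vil1, Cdx1, Cdx2, Slc26a3, Car1, Lypd8 and Krt20) were found in every group, with sums of 9044 to 28170.1 CPM, and none was at 0. Summed pancreatic acinar markers, 10 genes of another secretory tissue, exceeded 1000 CPM in wild-type library 5, knockout vehicle libraries 1, 3 and 6, 30 mg/kg libraries 1, 4 and 9, and anti-p40 library 5. Counts without these libraries, an alternative chosen after seeing the data, are given beside the results.

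Promoter sequences show which members carry the DNA elements through which this response is known to act. The 250 bases before the gene start were taken from RefSeq (GRCm38.p6) for 32 members, and Atf6, Derl1, Ern2, Hyou1, Manf and Sec61a1 had no entry. Both strands were searched. The ER stress response element (ERSE), the letters CCAAT and CCACG with 9 bases of any kind between them, is bound by ATF6 together with NF-Y. Of the 32 members 9 (28.1%) had a match, against 0.13% of all 27025 genes with a promoter entry, each counted once. The members were listed as known genes of this response. This share and those below are therefore a description, not independent evidence. ERSE-II, the letters ATTGG and CCACG with 1 base between them, was found in Herpud1 alone of the members (3.12%, against 0.037%). The C/EBP-ATF response element (CARE) of ATF4, TGATGNAAN, was found in Asns, Chac1 and Herpud1 (9.38%, against 3.89%). The XBP1 element TGACGTGG was found in 0 of 32, against 0.603% of all genes, which says only that these letters are not in these windows. ERSE and ERSE-II are built from the same CCAAT and CCACG blocks at different spacing, and no match printed here overlaps another. The following windows read 5′ to 3′ on the gene's strand, with the matched letters in capitals. A match is a description of the letters, not a shown binding site. The windows end at the RefSeq start, and the gene starts of GENCODE, given with the values below, can differ: the Hspa5 and Asns matches lie just inside the GENCODE gene and are shown with shorter flanks.
Hspa5, ERSE, chr2:34772020-34772048, plus strand: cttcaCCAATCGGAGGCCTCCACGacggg
Hsp90b1, ERSE, chr10:86705626-86705668, minus strand: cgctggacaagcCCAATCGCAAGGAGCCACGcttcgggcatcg
Hsp90b1, inverted ERSE, chr10:86705521-86705563, minus strand: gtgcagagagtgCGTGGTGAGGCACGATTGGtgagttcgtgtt
Calr, inverted ERSE, chr8:84847063-84847105, minus strand: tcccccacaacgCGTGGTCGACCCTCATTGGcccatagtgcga
Canx, ERSE, chr11:50325788-50325830, minus strand: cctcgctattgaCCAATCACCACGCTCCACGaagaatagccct
Dnajc3, ERSE, chr14:118937815-118937857, plus strand: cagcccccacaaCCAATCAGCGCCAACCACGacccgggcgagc
Pdia6, ERSE, chr12:17266479-17266521, plus strand: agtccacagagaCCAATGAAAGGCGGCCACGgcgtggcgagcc
Derl3, inverted ERSE, chr10:75893230-75893272, plus strand: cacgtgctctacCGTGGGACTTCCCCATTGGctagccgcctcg
Syvn1, ERSE, chr19:6046520-6046562, plus strand: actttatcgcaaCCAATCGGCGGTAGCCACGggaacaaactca
Asns, CARE, chr6:7693219-7693237, minus strand: ccacaTGATGAAACttccc
Chac1, inverted CARE, chr2:119351036-119351068, plus strand: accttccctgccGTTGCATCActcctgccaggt

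Whole 250-base windows are shown for Creld2, the other gene with an ERSE match, and for Herpud1, the 1 member holding 2 different elements (an inverted CARE followed by an ERSE-II).
Creld2, chr15:88819396-88819645, plus strand: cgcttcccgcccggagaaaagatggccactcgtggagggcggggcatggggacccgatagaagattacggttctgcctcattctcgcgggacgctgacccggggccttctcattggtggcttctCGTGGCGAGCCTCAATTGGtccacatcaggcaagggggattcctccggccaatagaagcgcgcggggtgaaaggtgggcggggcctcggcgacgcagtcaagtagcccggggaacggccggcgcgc
Herpud1, chr8:94386179-94386428, plus strand: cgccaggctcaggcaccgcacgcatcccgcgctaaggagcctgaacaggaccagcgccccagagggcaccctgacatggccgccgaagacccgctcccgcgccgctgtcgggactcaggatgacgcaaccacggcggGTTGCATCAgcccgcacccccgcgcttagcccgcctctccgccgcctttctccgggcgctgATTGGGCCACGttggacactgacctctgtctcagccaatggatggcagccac

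The first comparison set knockout colon given vehicle against wild-type colon. All 11 chaperone genes, 3 of 4 isomerases and all 6 translocation genes were higher in the knockout, 4 of 6 sensors and transcription factors were not called, and Ddit3 was lower. In edgeR's quasi-likelihood test with Benjamini-Hochberg adjustment over all genes, 26 of the 38 members (68.4%) passed an adjusted p of 0.05 as higher, against 25.2% of the 16435 genes tested. Only Ddit3 was called lower, against 24.1% of all genes, and 11 members were not called. Because the list was chosen with earlier results of these data known, these shares are a description, not independent evidence. The members' median log2 fold change was 0.45, beside −0.01 over all genes. Summed over the 38 genes, the members made up 0.49% to 0.635% of CPM in wild type (median 0.544%) and 0.509% to 1.01% in knockout vehicle (median 0.804%). The ranges overlapped only through knockout vehicle library 3 (5092 CPM). Every other knockout vehicle library, at 6518 CPM or more, lay above the highest wild-type library (6349 CPM). On the authors' TPM values, which also divide by transcript length, limma called 21 members higher and 1 lower. Over all genes it called 2038 higher and 5783 lower. This fit left out TMM scaling, the adjustment between libraries used for the counts. TMM factors over all libraries were 1.049 to 1.119 in wild type. In knockout vehicle they were 0.8773 to 1.016, except 1.136 in library 3. All genes shifted to a median of −0.17 on TPM, with 26.1% of calls higher in place of 51.1%. The part of scaling in this shift was not tested. Relative to that shift, 36 of 37 members tested lay above the median of all genes, as did 36 of 38 in the count fit.

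**Figure D1:**
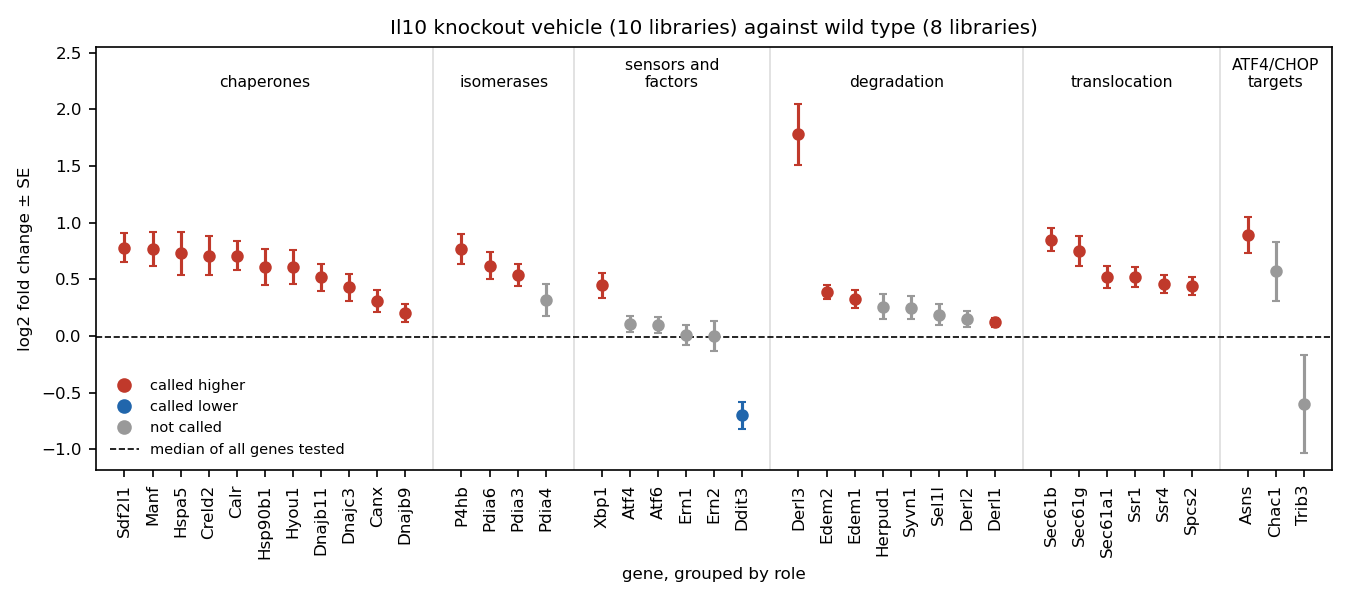
Log2 fold change of each of the 38 genes in knockout vehicle (10 libraries) over wild type (8 libraries), by role, with bars of 1 standard error, red or blue points for an adjusted p under 0.05 and a dashed line at the median of all genes. All 11 chaperones and 6 translocation genes are red and above 0, Derl3 is highest at 1.78 and Ddit3 is the only blue point, at −0.70.

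All 11 chaperones and co-chaperones were higher in the knockout, with a median log2 fold change of 0.61. Hspa5, which encodes BiP, the main ER chaperone (chr2:34771970-34777547), stood at 425 CPM in the lowest, 533 in the median and 734 in the highest wild-type library. In knockout vehicle it ranged from 395 through 839.9 to 1488 CPM. The ranges overlapped, with 9 of 10 knockout libraries above the wild-type mean, and the log2 fold change was 0.73 ± 0.19 (SE, adjusted p = 0.00448).

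Sdf2l1, a partner of ER co-chaperones, had the smallest adjusted p of this role. Its wild-type libraries held 19.4, 22.3 and 28.3 CPM (lowest, median, highest) and its knockout libraries 21.5, 39.4 and 50.8 CPM, a log2 fold change of 0.78 ± 0.13 (adjusted p = 0.000152). Calr, the sugar-binding chaperone calreticulin, went from 449, 481 and 614 CPM to 476, 805 and 1114 CPM, a log2 fold change of 0.71 ± 0.13 (adjusted p = 0.000305). Manf, an ER-resident protein that binds BiP, went from 78.3, 86.9 and 122 CPM to 82.9, 160.1 and 204 CPM, a log2 fold change of 0.77 ± 0.15 (adjusted p = 0.000436). For these genes the lowest knockout library fell inside the wild-type range, while the knockout median lay above the highest wild-type library.

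The other chaperones had smaller or similar differences. Creld2 (0.71), Hsp90b1, which encodes GRP94 (0.61), Hyou1, a large Hsp70-related chaperone (0.61), and the BiP co-chaperones Dnajb11 (0.52) and Dnajc3 (0.43) were all called higher on the log2 scale. The membrane-bound partner of calreticulin, Canx, differed by 0.31 ± 0.10 (adjusted p = 0.0173). This call depends on the unit and scaling, since its log2 fold change was −0.02 on TPM, beside −0.17 over all genes. Dnajc3 kept its direction on TPM (0.20) but lost its call. Dnajb9, a co-chaperone that also restrains IRE1, was the least secure at 0.20 ± 0.08 (adjusted p = 0.0498). It lost its call in 18 of 26 alternatives. Its log2 fold change was −0.01 in both TPM fits, beside medians of −0.17 and −0.19 over all genes.

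Among the disulfide isomerases, 3 of 4 were higher. P4hb, protein disulfide isomerase itself (chr11:120560298-120573253), ranged from 362 through 395 to 434 CPM in wild type and from 440.4 through 697 to 949.6 CPM in the knockout. Every knockout library therefore lay above every wild-type library, a pattern found as higher in 2.99% of all genes tested, and the log2 fold change was 0.77 ± 0.13 (adjusted p = 0.000132). Only Edem2 and Sec61b of the other members showed it.

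Pdia3, the isomerase that works with calnexin and calreticulin, rose from 515, 599 and 694 CPM to 568, 908 and 1017 CPM (lowest, median, highest; log2 fold change 0.54 ± 0.10, adjusted p = 0.000447). Pdia6 rose from 146, 155 and 206 CPM to 182, 252 and 338 CPM (0.62 ± 0.12, adjusted p = 0.000573). The groups overlapped for both. Pdia4 was not called (0.32 ± 0.14, adjusted p = 0.0629), but it passed without wild-type library 6 (adjusted p = 0.0371), without knockout vehicle library 3 (0.0153) and without knockout vehicle library 8 (0.0397).

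The sensors and transcription factors did not move as a group: 1 of 6 was higher, 1 lower and 4 not called, with a median log2 fold change of 0.05. Ddit3, which encodes CHOP (chr10:127290774-127296288), stood at 16.4, 19.8 and 21.9 CPM in wild type and at 8.12, 11.5 and 17.4 CPM in the knockout. In 9 of 10 knockout libraries it was below every wild-type library, with a log2 fold change of −0.70 ± 0.12 (adjusted p = 0.000177), and it was called lower in all 26 alternatives. Ddit3 overlaps Mars, on the opposite strand, and a second Ddit3 model in the annotation. Whether the counting used strand is not given in the sources used here. Mars itself moved the other way (0.21, adjusted p = 0.0378).

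Xbp1, the factor that IRE1 activates by splicing (chr11:5520659-5525893), was the sensor-group gene called higher. It ranged from 133 through 147 to 169 CPM in wild type and from 142 through 195 to 286 CPM in the knockout, a log2 fold change of 0.45 ± 0.11 (adjusted p = 0.00288). These values count all Xbp1 transcripts and do not separate the spliced form. Atf4 stood at 118, 128 and 138 CPM against 119, 133 and 165 CPM (0.11 ± 0.07, adjusted p = 0.201).

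The remaining sensors had small differences. Atf6 differed by 0.10 (adjusted p = 0.255), Ern1, which encodes the IRE1 of most cells, by 0.01 (adjusted p = 0.909), and Ern2, the IRE1 form of mucus-secreting epithelium, by 0.00 (adjusted p = 0.996). On TPM, which allows levels of 2 genes to be compared, Ern2 was the more abundant of the pair in wild type, with a median of 29.4 TPM (21.4 to 39.4) beside 16.0 TPM for Ern1 (11.6 to 19.5).

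**Figure D2:**
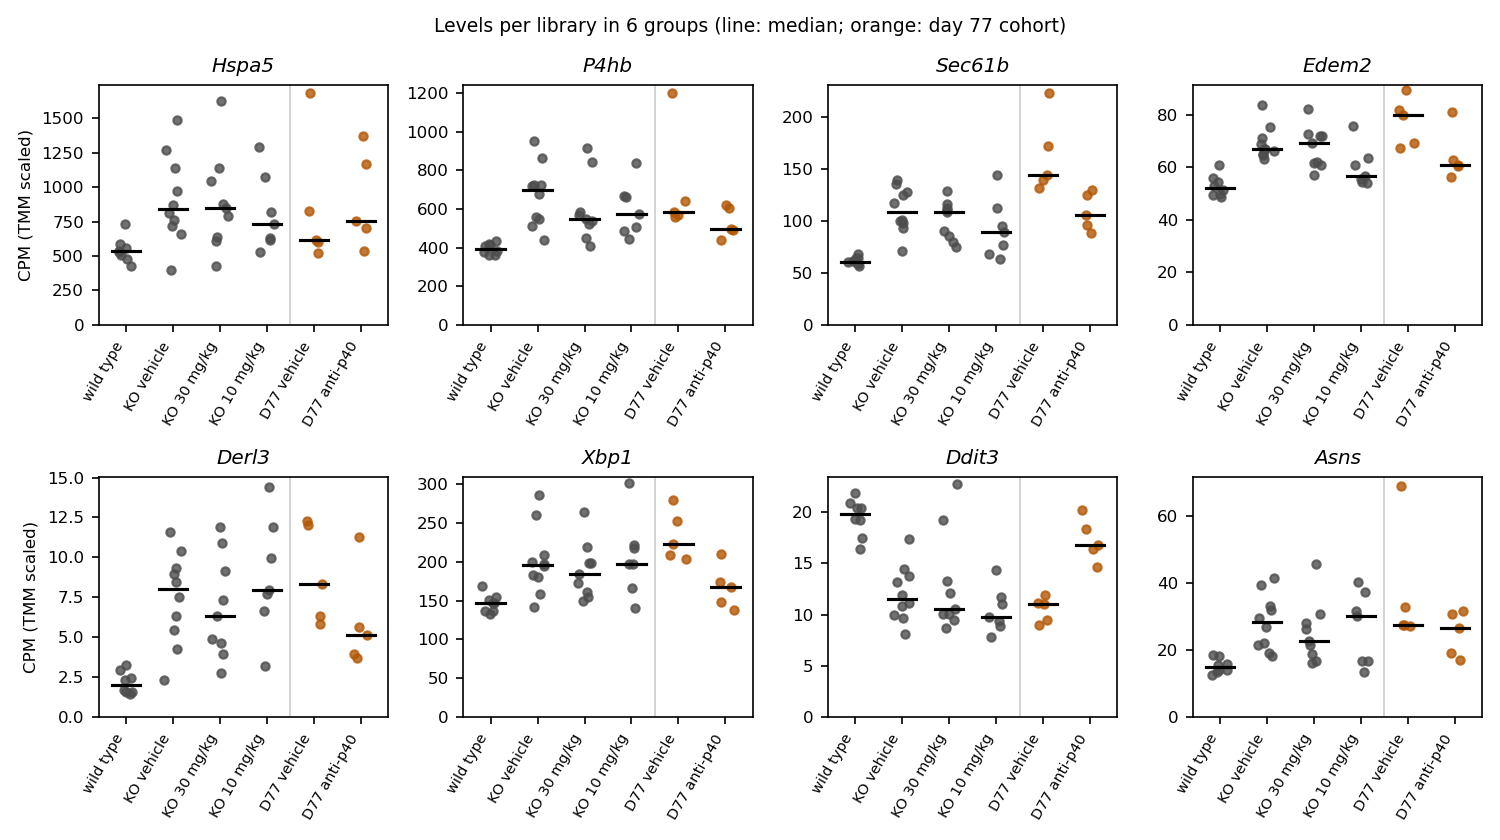
CPM of 8 genes (Hspa5, P4hb, Sec61b, Edem2, Derl3, Xbp1, Ddit3 and Asns) in every library of the 6 groups on linear axes from 0, 1 point per library with a line at the group median and the day 77 cohort in orange. P4hb, Sec61b and Edem2 separate wild type from knockout vehicle without overlap, and Ddit3 is the gene whose wild-type and anti-p40 libraries (14.6 to 20.2 CPM) lie above the medians of the other groups.

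Of the ER-associated degradation genes, 4 of 8 were higher and none lower, with a median of 0.26. Derl3 (chr10:75893413-75895941), a derlin of the retrotranslocation machinery, differed most. It ranged from 1.42 through 2.01 to 3.29 CPM in wild type and from 2.31 through 8.02 to 11.6 CPM in the knockout. All 10 knockout libraries lay above the wild-type mean, and the difference was 3.43-fold (log2 fold change 1.78 ± 0.27, adjusted p = 7.49e-05).

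Edem2 and Edem1 take part in the mannose trimming that marks glycoproteins for degradation. Edem2 (chr2:155701677-155729475) stood at 48.7, 52.1 and 60.9 CPM in wild type and 63.3, 67 and 83.8 CPM in the knockout, with no overlap (0.39 ± 0.06, adjusted p = 9.6e-05). Edem1 stood at 154, 188 and 204 CPM against 172, 246 and 268 CPM (0.33 ± 0.08, adjusted p = 0.00268). On TPM Edem2 remained called, while Edem1 fell to 0.09 and was not.

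Derl1 was called higher by a small margin (0.12 ± 0.04, adjusted p = 0.03). The call was lost without wild-type library 5, 7 or 8 or knockout vehicle library 2 (adjusted p up to 0.0597 without wild-type library 5). On TPM the log2 fold change was −0.07, beside −0.17 over all genes. Herpud1, a stress-induced membrane protein of the degradation complex, was not called (0.26, adjusted p = 0.0537), nor was the ubiquitin ligase gene Syvn1, which encodes HRD1 (0.25, adjusted p = 0.0516). Its partner Sel1l (0.19, adjusted p = 0.099) and Derl2 (0.15, adjusted p = 0.0935) were not called either. All 4 passed without knockout vehicle library 3, for Derl2 with an adjusted p of 0.00986. Syvn1 overlaps Mrpl49, which was lower (−0.21, adjusted p = 0.00835), and Derl2 overlaps Mis12 (0.07, adjusted p = 0.398).

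All 6 translocation genes were higher, with a median of 0.52. Sec61b (chr4:47474658-47483242), the beta subunit of the channel, had the smallest adjusted p of the 38. It ranged from 56.6 through 60.6 to 68 CPM in wild type and from 71.4 through 109 to 139 CPM in the knockout, without overlap (0.85 ± 0.10, adjusted p = 1.06e-05). Its gamma partner Sec61g stood at 31.7, 39.8 and 44.1 CPM against 41.9, 64.5 and 92.5 CPM (0.75 ± 0.13, adjusted p = 0.000171). The ranges of Sec61g overlapped only between 41.9 and 44.1 CPM.

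Ssr4, a subunit of the translocon-associated complex, stood at 60.7, 67.1 and 78 CPM against 74.6, 96.9 and 111 CPM (0.46 ± 0.08, adjusted p = 0.000162). Ssr1 of the same complex (0.52), the channel's pore subunit Sec61a1 (0.52) and the signal peptidase subunit Spcs2 (0.44) were also called higher.

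Of the 3 ATF4 and CHOP targets, 1 was higher. Asns, asparagine synthetase (chr6:7675169-7693254), ranged from 12.5 through 14.9 to 18.5 CPM in wild type and from 18.1 through 28.3 to 41.5 CPM in the knockout (0.89 ± 0.16, adjusted p = 0.000252). Its lowest knockout library touched the wild-type range. The glutathione-degrading enzyme gene Chac1 was near 1 CPM, at 0.646, 0.91 and 1.34 CPM against 0.648, 1.19 and 2.46 CPM (0.57 ± 0.26, adjusted p = 0.0718), and passed without knockout vehicle library 1 (0.0321). Trib3, a pseudokinase that CHOP induces, stood at 0.471, 0.741 and 0.998 CPM against 0.0366, 0.326 and 1.42 CPM (−0.60 ± 0.43, adjusted p = 0.255).

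Grouped by promoter letters, 8 of the 9 members with an ERSE match were called higher (median 0.62), Syvn1 being the exception. Of the 23 members whose window had no ERSE match, which include Asns, Chac1 and Herpud1, 14 were higher and 1 lower (median 0.44), and 4 of the 6 without a promoter entry were higher. These counts are a description and were not tested.

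Markers of other cell types moved in the same comparison. Of 10 plasma cell markers 9 were higher, with sums of 996 to 1651 CPM in wild type and 2018 to 9999.8 CPM in knockout vehicle. Of 9 goblet cell markers 6 were higher (14854 to 24273 CPM against 20131 to 43011 CPM), of 8 colon epithelial markers 5 were higher and 1 lower, and all 6 smooth muscle markers were lower (4593 to 11078 CPM against 346 to 7808 CPM). No marker of these 4 lists was at 0 in either group. Their part in the differences of the secretory genes was not tested. In whole tissue, more cells of a type and more RNA per cell cannot be told apart. Without the libraries high in acinar markers, 29 members were higher and 2 lower, Trib3 being added (−1.17, adjusted p = 0.0309). Over all genes 4167 were higher and 4272 lower in that fit, in place of 4147 and 3966. Leaving out only knockout vehicle library 3 gave 31 higher, and leaving out any other library gave at least 24. Counts over all genes are not given here for these fits. The rise is therefore not shown to be particular to the members.

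Within the 10 knockout vehicle libraries, the members were set against the plasma and goblet marker sums in 76 relations, with permutation tests of 100000 resamples adjusted over all 76. The median Pearson r was 0.64 with the plasma sum and 0.02 with the goblet sum. On TPM these medians were 0.50 and −0.44, so the goblet value depends on the unit. One relation passed: Edem2 with the plasma sum (r = 0.88, permutation adjusted p = 0.0289; rho = 0.78, adjusted p = 0.102). Without knockout vehicle libraries 2 and 4, the 2 farthest from the median sum, r was 0.69, and on TPM it was 0.41 and no relation passed, so this relation holds only on the count scale. Derl3 had r = 0.82 (permutation adjusted p = 0.0825, rho = 0.83, and 0.79 without those libraries). For Ddit3 r was −0.70 with the plasma sum (permutation adjusted p = 0.11, rho = −0.82, and −0.77 without those libraries). Ern2 had r = 0.75 with the goblet sum (permutation adjusted p = 0.101, rho = 0.81), and 0.68 without libraries 7 and 9, the 2 farthest for that sum. These last 3 did not pass the adjustment.

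**Figure D3:**
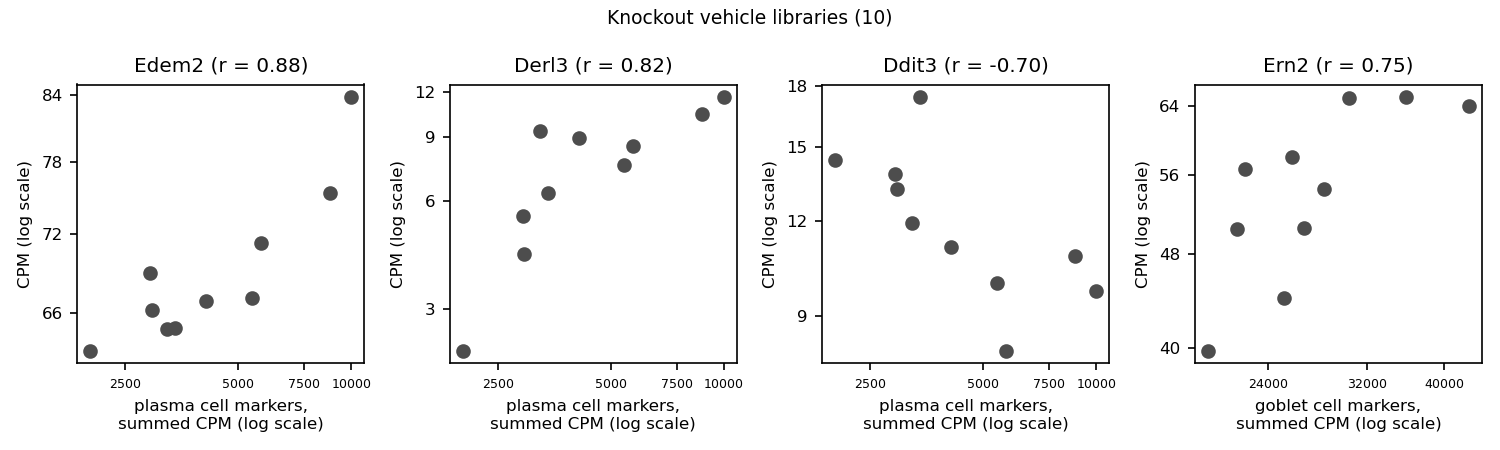
CPM of Edem2, Derl3 and Ddit3 against the summed CPM of 10 plasma cell markers, and of Ern2 against the sum of 9 goblet cell markers, in the 10 knockout vehicle libraries (1 point each, both axes log). Edem2 and Derl3 are highest in the 2 libraries with the highest plasma sums, and only the relation of Edem2 passed the adjusted permutation test.

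Of 111 other genes of the pathway, in 6 lists also chosen with earlier results known, 74 were higher (66.7%, against 25.2% of all genes). Lower were 8 (7.21%, against 24.1%), and the median was 0.32. In folding and disulfide formation 16 of 19 were higher and 2 lower. The ER oxidases Ero1l (1.01 ± 0.18, adjusted p = 0.000293) and Ero1lb (0.61 ± 0.10, adjusted p = 0.000152) were higher, while the sulfhydryl oxidase Qsox1 was lower (−0.96 ± 0.20, adjusted p = 0.00102). In translocon, signal peptidase and sugar transfer 16 of 25 were higher and 1 lower, with Ssr2 and the oligosaccharyl transferase subunit Rpn2 both at 0.60. In degradation 9 of 14 were higher and 2 lower, among them Vcp, the ATPase that extracts proteins from the membrane (0.47 ± 0.09, adjusted p = 0.000329), and its cofactor Ufd1 (0.27).

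Of 14 sensors, kinases and cleavage enzymes 4 were higher (28.6%, near the 25.2% of all genes) and 2 lower (14.3%, against 24.1%). Eif2ak2, the double-stranded RNA kinase PKR, was at 1.01 ± 0.14 (adjusted p = 3.99e-05) and the ER-bound factor Creb3 at 0.52 ± 0.09 (adjusted p = 0.000163). Of 19 integrated stress response targets 13 were higher and 1 lower. Phgdh, the first enzyme of serine synthesis, went from 8.24, 10.9 and 16.8 CPM to 24.6, 46 and 78.9 CPM (2.13 ± 0.21, adjusted p = 1.96e-06), and Atf3 from 16.4, 21.4 and 28.5 CPM to 43.2, 78.1 and 109 CPM (1.78 ± 0.18, adjusted p = 2.05e-06). Neither gene's groups overlapped, a pattern found as higher in 2.99% of all genes tested. Of 20 genes of traffic between ER and Golgi 16 were higher and 0 lower, led by the coat subunits Sec13 (0.52 ± 0.08, adjusted p = 0.000135) and Sec23b (0.91 ± 0.16, adjusted p = 0.000209).

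Compound 13 was compared with the same knockout vehicle libraries at each dose, so the 2 dose comparisons share their controls and share them with the knockout comparison. At 30 mg/kg no member was called in edgeR or any of the 32 alternatives, DESeq2 and limma among them. In edgeR 0.0% of the 16948 genes tested were called, and in DESeq2 0 genes were higher and 3 lower. One member had an unadjusted p under 0.05, against 5.92% of all genes. The log2 fold changes ran from −0.54 to 0.11, with a median of −0.02 beside 0.00 over all genes.

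The 3 members with the smallest p at 30 mg/kg were Syvn1, Chac1 and P4hb. Syvn1 stood at 63.7, 79.6 and 119 CPM with vehicle and 48.6, 72 and 87.7 CPM with 30 mg/kg (−0.22 ± 0.10, unadjusted p = 0.0462 and adjusted p = 0.836 in edgeR). Chac1 reached 0.329, 0.826 and 1.73 CPM (−0.54, adjusted p = 0.957) and P4hb 406, 550.1 and 913 CPM (−0.17, adjusted p = 0.97). The ranges of each overlapped those of vehicle. Ddit3, at 8.72, 10.5 and 22.7 CPM, differed from vehicle by 0.11 ± 0.18 (adjusted p = 0.999), and Hspa5, at 426, 847 and 1629 CPM, by −0.03 ± 0.23 (adjusted p = 0.999).

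At 10 mg/kg no member was called in edgeR or in any of the 32 alternatives. Among all genes, edgeR called 0.0059% in each direction, while DESeq2 called 30 higher and 42 lower. Unadjusted p-values were under 0.05 for 2 members, beside 11% of all genes. Edem2 stood at 54.2, 56.7 and 75.8 CPM, against 63.3, 67 and 83.8 CPM with vehicle (−0.19 ± 0.08, adjusted p = 0.378). Herpud1 stood at 110.1, 164 and 276 CPM, against 93.3, 134 and 195 CPM (0.31 ± 0.14, adjusted p = 0.421). Sec61b came next, at 63.4, 89.8 and 144 CPM (−0.25 ± 0.15, adjusted p = 0.551). All 3 overlapped vehicle, and the members' median was −0.06, beside −0.02 over all genes.

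Between the doses, 30 over 10 mg/kg, no member was called in edgeR or its alternatives. Among all genes, edgeR called 0.0%, while DESeq2 called 114 higher and 229 lower. Of the members 2 had an unadjusted p under 0.05 in edgeR, against 14.5% of all genes. Herpud1 was at 96.5, 130.2 and 145 CPM with the higher dose, and the log2 difference was −0.41 ± 0.15 (adjusted p = 0.201). Edem2 was at 57.2, 69.2 and 82.1 CPM (0.17 ± 0.08, adjusted p = 0.339), and Sec61g at 42, 72.4 and 100.4 CPM against 26.5, 58.6 and 91.3 CPM (0.39 ± 0.21, adjusted p = 0.4). The median was 0.01 beside 0.02. A p that misses the threshold does not show that the groups were alike.

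The day 77 cohort compared anti-p40 with vehicle in knockout colon. Fewer members passed here than in the knockout comparison: Ddit3 was higher with anti-p40, Xbp1 and Sec61b were lower, and 35 were not called. With 5 and 5 libraries here against 10 and 8 there, the counts cannot be compared directly. Among all 16470 genes tested, 8.35% were higher and 8.32% lower, so 1 and 2 of 38 members were shares below the background in each direction. Of the 38 members 9 had an unadjusted p under 0.05, beside 32.8% of all genes, and the members' median was −0.08, beside 0.01.

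Ddit3 was at 11.9, 9.44, 11, 8.96 and 11.1 CPM in vehicle libraries 1 to 5 and at 16.8, 20.2, 16.4, 14.6 and 18.3 CPM in anti-p40 libraries 1 to 5. Every anti-p40 library lay above every vehicle library, as did 6.81% of all genes, and the log2 fold change was 0.73 ± 0.12 (adjusted p = 0.00386). It passed in all 17 alternatives, with values of 0.66 to 0.84. Mars, which overlaps it, differed by −0.07 (adjusted p = 0.764). In the knockout comparison, which shares no library with this one, Ddit3 was −0.70.

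Xbp1 was at 252, 203, 279.9, 223 and 209 CPM with vehicle and at 168, 138, 210.4, 148 and 174 CPM with anti-p40. In 4 of 5 anti-p40 libraries it was below every vehicle library (−0.47 ± 0.13, adjusted p = 0.0303). The call was lost on TPM and without vehicle library 1 or 4 or anti-p40 library 1, 2, 4 or 5 (adjusted p up to 0.0759, without anti-p40 library 2). Ern2 was at 65, 45.3, 45.9, 56.9 and 67.6 CPM with vehicle and 77.9, 59.7, 93.5, 67.3 and 75.4 CPM with anti-p40 (0.42 ± 0.14, adjusted p = 0.0667). Atf4 (0.21), Ern1 (0.19) and Atf6 (−0.13) were not called.

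**Figure D4:**
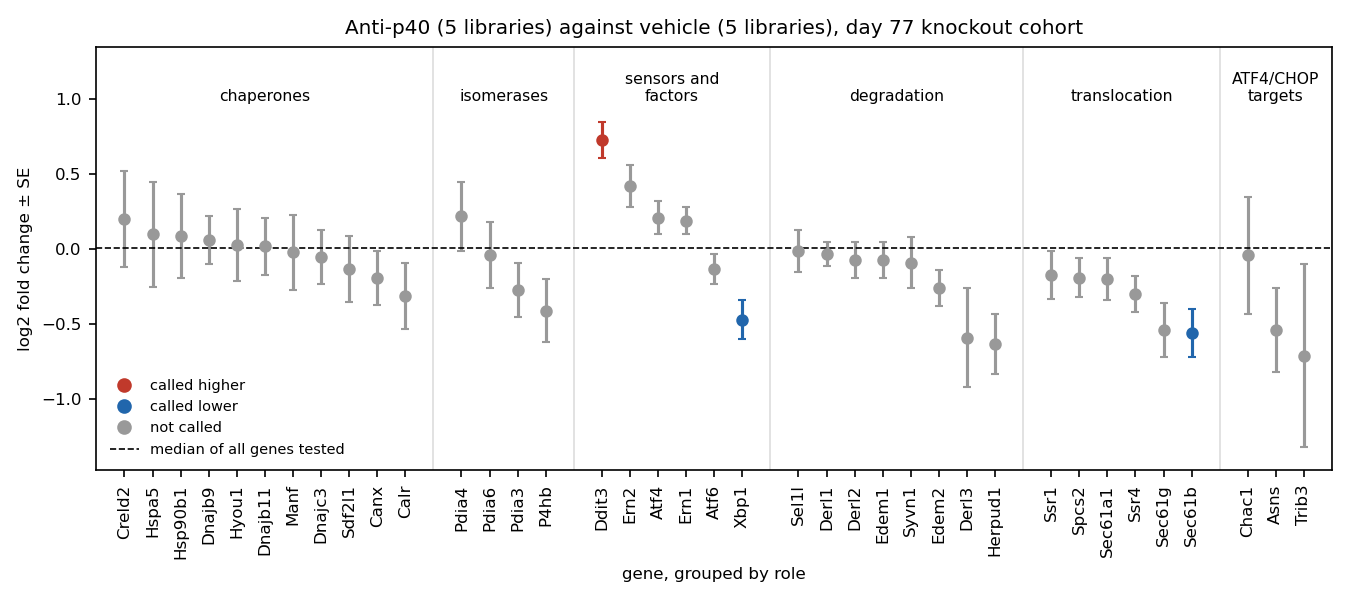
Log2 fold change of each of the 38 genes in anti-p40 (5 libraries) over vehicle (5 libraries) at day 77, by role, with bars of 1 standard error and red or blue points for an adjusted p under 0.05. Ddit3 at 0.73 is the only red point, Xbp1 (−0.47) and Sec61b (−0.56) are the only blue points, and the 11 chaperones lie between −0.31 and 0.20.

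Sec61b was at 144, 172, 223, 132 and 139 CPM with vehicle and at 125, 106, 88.5, 96.3 and 130 CPM with anti-p40. The groups did not overlap, as was the case for 7.72% of all genes in the lower direction, with −0.56 ± 0.16 on the log2 scale (adjusted p = 0.0366). The call was lost on TPM and without vehicle library 2 or anti-p40 library 2, 3 or 4 (adjusted p up to 0.0809, without anti-p40 library 4). Sec61g was at 72.9, 107, 139.8, 79.3 and 80.7 CPM against 76.3, 62.2, 66.3, 50.1 and 72.8 CPM (−0.54 ± 0.18, adjusted p = 0.0652), and passed in DESeq2 (0.036).

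The other translocation genes were not called. Ssr4 ran from 116 to 159 CPM with vehicle and from 94.6 to 133 CPM with anti-p40 (−0.30, adjusted p = 0.114). Spcs2 (−0.19), Sec61a1 (−0.20) and Ssr1 (−0.17) had values below 0.

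In ER-associated degradation none of 8 was called. Herpud1 was at 144, 153, 319, 179.9 and 166 CPM with vehicle and at 129.8, 109, 145, 110.1 and 125 CPM with anti-p40. The groups overlapped by 1 library (−0.63 ± 0.20, adjusted p = 0.0563), and Herpud1 passed in DESeq2 (0.0239). It also passed in edgeR without vehicle library 1 (−0.71, adjusted p = 0.0485) or 3 (adjusted p = 0.0318). Without library 3 the log2 fold change was smaller, at −0.38. Derl3 was at 12.3, 5.8, 6.34, 8.35 and 12 CPM against 3.97, 5.13, 5.64, 3.68 and 11.3 CPM (−0.59 ± 0.33, adjusted p = 0.241).

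The high Derl3 value with anti-p40 is library 5, the library high in acinar markers. Without it Derl3 (adjusted p = 0.0376), Edem2 (0.0392) and Ssr4 (0.0478) passed as lower and Xbp1 did not (0.0545). In that fit 4 members were lower in place of 2. Over all genes 1287 were higher and 1207 lower, in place of 1375 and 1370. Whether the change in the count of lower members is particular to them was not tested. With all libraries Edem2 was at −0.26 (adjusted p = 0.144). Edem1 and Derl2 (both −0.07), Syvn1 (−0.09), Derl1 (−0.03) and Sel1l (−0.01) had values close to 0.

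No chaperone was called with anti-p40 in edgeR, and the median over the 11 was 0.02. Hspa5 was at 825, 619.6, 1681, 522 and 603 CPM with vehicle and at 755, 701, 1372, 536 and 1169.8 CPM with anti-p40 (0.10 ± 0.35, adjusted p = 0.875). Vehicle library 3 and anti-p40 library 3 were the highest of their groups. The smallest p of the role was that of Calr, at 625 to 1433 CPM against 587 to 866 CPM (−0.31, adjusted p = 0.373). Canx (−0.19, adjusted p = 0.507) and Creld2 (0.20, adjusted p = 0.712) followed, and Creld2 was −0.04 without anti-p40 library 5. Sdf2l1 (−0.13), Dnajc3 (−0.05), Manf (−0.02), Dnajb11 (0.02), Hyou1 (0.03), Dnajb9 (0.06) and Hsp90b1 (0.09) were closer to 0.

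The isomerases and the ATF4 and CHOP targets were not called either. P4hb was at 582, 641, 1202, 558 and 569 CPM with vehicle and at 495, 493, 603, 439 and 618 CPM with anti-p40 (−0.41, adjusted p = 0.205). Pdia3 (−0.27, adjusted p = 0.34), Pdia4 (0.22, adjusted p = 0.551) and Pdia6 (−0.04) had mixed signs. Asns was at 27.4, 32.8, 68.9, 27.5 and 27.2 CPM against 26.6, 19.1, 30.9, 17.1 and 31.7 CPM (−0.54, adjusted p = 0.212). Trib3 (−0.71, adjusted p = 0.46) was 0.38 without vehicle library 3, and Chac1 was −0.04 (adjusted p = 0.958). Vehicle library 3 was thus the highest for P4hb, Asns, Herpud1 and Hspa5 alike.

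Markers of other cell types moved with anti-p40 too. Of 10 plasma cell markers 6 were lower, with sums of 5406 to 8667 CPM with vehicle and 2104 to 3775 CPM with anti-p40. Of 9 goblet markers 1 was higher (12403 to 20592 CPM against 21620.2 to 40157 CPM) and of 6 smooth muscle markers 5 were higher (1457 to 3719 CPM against 3850 to 9571 CPM). No marker of these 3 lists was at 0 in either group. Their part in the values of Ddit3, Xbp1 and Sec61b was not tested.

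Of the 111 other pathway genes, 2 were higher (1.8%, against 8.35% of all genes) and 11 lower (9.91%, against 8.32%) with anti-p40, the lower share being near the background. Qsox1, lower in the knockout, was higher here (0.66 ± 0.14, adjusted p = 0.00913), as was Creb3l1, an ER-bound factor of secretory cells (0.47 ± 0.12, adjusted p = 0.0222). Phgdh ran from 48.6 to 77.1 CPM with vehicle and from 19.3 to 51.4 CPM with anti-p40 (−1.13 ± 0.25, adjusted p = 0.0145). The Vcp cofactor Nploc4 (−0.40, adjusted p = 0.0139), Creb3 (−0.53, adjusted p = 0.0228), Sec13 (−0.30, adjusted p = 0.0353) and the mitochondrial serine enzyme Shmt2 (−0.49, adjusted p = 0.0355) were lower. In the same direction were Txndc11 (−0.34, adjusted p = 0.0398), Eif2ak2 (−0.57, adjusted p = 0.0401) and the vesicle-coat GTPase gene Sar1b (−0.29, adjusted p = 0.0447). Most of these calls were not stable: of 17 alternatives, Txndc11 and Sar1b lost theirs in 11, Sec13 and Eif2ak2 in 10, Shmt2 in 9, Nploc4 and Creb3 in 2 and Creb3l1 in 1, and only Qsox1 and Phgdh, of the genes named here, passed in all. The losses included 8 of the 10 fits that left out 1 library for Txndc11 (adjusted p up to 0.1, without vehicle library 1) and for Sar1b (up to 0.101, without vehicle library 2).

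Whether anti-p40 and compound 13 at 30 mg/kg differed in effect was tested as the difference of the 2 effects, each against the vehicle of its own cohort. No member was called in edgeR, beside 0.444% of the 18021 genes tested as higher and 1.2% as lower. Unadjusted p-values were under 0.05 for 3 members (15.5% of all genes): Ddit3 (0.63 ± 0.24, adjusted p = 0.179), Herpud1 (−0.53 ± 0.22, adjusted p = 0.225) and Sec61g (−0.63 ± 0.29, adjusted p = 0.26). Ddit3 passed on TPM (0.85, adjusted p = 0.0191) and without 30 mg/kg library 5 (0.77, adjusted p = 0.0422). Its call in the anti-p40 comparison alone is therefore not shown to differ from the compound 13 comparison in the count fit. The cohorts also differ in their vehicle groups and in whatever else separates them, which cannot be told apart from the treatments.

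**Figure D5:**
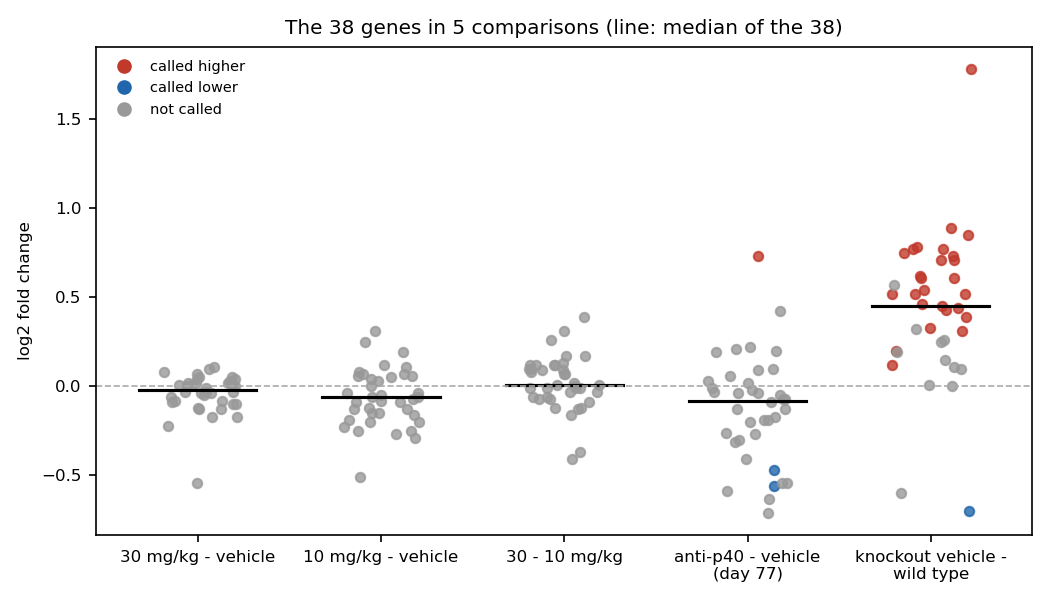
Log2 fold change of the 38 genes (1 point each, spread sideways for legibility) in the 3 compound 13 comparisons, anti-p40 over vehicle and knockout vehicle over wild type, with a line at the median of the 38 and colour for an adjusted p under 0.05. The compound 13 points are all grey around medians of −0.02, −0.06 and 0.01, anti-p40 has 1 red and 2 blue points, and the knockout points centre on 0.45 with 26 red and 1 blue.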

How the data were processed

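Distal colon RNA was analysed from 45 libraries, 44 of them in 6 groups. The authors deposited estimated counts and TPM per gene. Per the submitters' processing notes, cutadapt 3.7, STAR 2.7.8a, RSEM 1.3.3 and DESeq2 1.30.1 were used on mm10; the annotation and strand setting are not given in the sources used here. Symbols and coordinates came from GENCODE M21, which matched 50376 of 50600 identifiers. Counts, of which 17.1% (first cohort) and 20.4% (day 77) of nonzero values were not whole, were rounded and tested with edgeR 4.0.16 in R 4.3.3: TMM scaling, filterByExpr, quasi-likelihood test, Benjamini-Hochberg adjustment over all genes tested, threshold 0.05. Each comparison was fitted on its own groups, the compound 13 groups with their vehicle in 1 fit and the difference of effects on all 6 groups. Fold changes are model estimates, and CPM uses TMM library sizes, with 0.5 added before the log2 used in correlations. TPM was tested with limma 3.58.1 as log2(TPM + 1), without TMM scaling, where genes passed a minimum of 1 TPM. This scale understates the change of low genes. The other alternatives were DESeq2 1.42.0, its size factors, no filter, limma voom, 0.1 added to TPM, and each library left out. A count of 0 in the shallowest library allows up to 0.132 CPM (3 counts, counting error only). In 150 pairs of libraries of the same group, chi-square divided by its degrees of freedom was at least 8.12. No such pair therefore looked like 1 library sequenced again, and each library was counted once. Separate preparations from 1 animal cannot be seen this way, and pairs across groups were not compared.

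The fit was tested on simulated data, with 100 genes changed at each fold. It recovered 53% of 1.5-fold and 73% of 2-fold changes for the knockout comparison (16238 genes), and 18% and 68% for anti-p40 (16308 genes). In each simulation 5 unchanged genes were called. Far larger shares of genes were called in the data, which moves the adjusted threshold, so these values do not give the sensitivity there. The members and gene lists were chosen with earlier results of these data known. Values by library are given for up to 3 members of each role with the smallest adjusted p in the knockout and anti-p40 comparisons, the 3 smallest p in each compound 13 comparison, and up to 2 called genes of each other list; Hspa5 and other members shown beyond these were chosen after their values were seen. The authors' own tables of fold changes were not used here.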

Additional observations from a re-analysis of the deposited data

Results flagged for a closer look

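Among 228 gene and group combinations (38 genes in 6 groups), 15 had a library far from the others by Dixon's criterion, which chance alone meets in about 1 of 20 groups. In the day 77 vehicle group, library 3 was far above the rest for 6 genes: P4hb (1202 CPM, next 641), Herpud1 (319, next 179.9), Spcs2 (126, next 94.8), Ssr1 (246, next 168), Asns (68.9, next 32.8) and Trib3 (3.57, next 0.795). It was also the highest vehicle library for most other members, and its sum over the 38 genes was 12606 CPM, next 7911. Wild-type library 6 was far above the others for the chaperone genes Sdf2l1 (28.3 CPM, next 22.7), Manf (122, next 91.5) and Creld2 (57.6, next 40.3). Knockout vehicle library 3 was far below for Dnajb9 (39.8 CPM, next 51.9) and Pdia3 (568, next 749.8). The remaining values were Edem1 in wild-type library 3 (154 CPM, lowest), Sec61g in wild-type library 5 (31.7, lowest), Creld2 in 30 mg/kg library 8 (128, highest) and Herpud1 in 30 mg/kg library 4 (96.5, lowest).

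The knockout library with conflicting dose labels, which entered no comparison, had 17 of the 38 genes above every wild-type library. Over the 16435 genes tested in the knockout comparison, 24.8% lay above every wild-type library in it.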

How the results depend on the processing

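The count of members higher in the knockout ran from 24 to 31 with 1 library left out and from 21 to 29 in the other alternatives; the lower count was 1 throughout, except 2 without the libraries high in acinar markers. On TPM (1 or 0.1 added), log2 fold changes for the knockout turned for Atf4 (−0.09), Atf6 (−0.10), Canx (−0.02), Derl1 (−0.07), Derl2 (−0.01), Dnajb9 (−0.01), Ern1 (−0.16 and −0.17) and Sel1l (−0.02). The TPM fits had no TMM scaling, and their medians over all genes were −0.17 (1 added) and −0.19 (0.1 added). Ern1 also ran from −0.02 to 0.05 with 1 library left out, and was −0.03 without the libraries high in acinar markers and −0.05 when knockout vehicle library 3 was kept. For anti-p40, 1 member was higher in all 17 alternatives. The lower count was 4 in DESeq2, 0 in both TPM fits, 0 to 4 with 1 library left out (0 without anti-p40 library 2 or 4) and 4 without the library high in acinar markers. Turned values for anti-p40 were Canx (0.05 on TPM), Chac1 (0.05 and 0.07 on TPM, and −0.25 to 0.32 with 1 library left out), Creld2 (−0.04 to 0.50 with 1 left out, −0.04 without the acinar-high library), Ero1lb (0.01 on TPM, −0.20 to 0.02 with 1 left out) and Trib3 (−0.96 to 0.38 with 1 left out). The difference of effects had 1 higher member on TPM and 0 to 1 with 1 library left out. Members related to the plasma sum fell from 1 to 0 on TPM. Compound 13 gave 0 members in all 32 alternatives of each comparison. The causes were not tested. Calls over all genes also changed with the setting, so changes in these counts are not shown to be particular to the members. No paired analysis was possible because the groups share no replicate numbers in the labels. Trib3 and Chac1 had the lowest wild-type TPM and CPM of the 38, near 1 CPM, and whether depth bears on their values was not tested.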

Other observations

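In the knockout library whose labels disagree on the dose of compound 13, Calr stood at 672 CPM, P4hb at 508, Sec61b at 76.6, Derl3 at 6.65 and Asns at 25.6, each above every wild-type library. Hspa5 (631 CPM) and Xbp1 (166 CPM) lay within the wild-type range. Of the 38 genes, 2 were below every wild-type library: Atf4 (114 CPM) and Ddit3 (11.5 CPM), beside 26.3% of the 16435 genes tested in the knockout comparison. Its summed acinar markers were 3230.1 CPM and its plasma cell markers 3889 CPM.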
